A study of Homo sapiens with 18 samples.

Results

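The cadherin superfamily was examined in RNA-seq data of 6 ovarian cancer cell lines that form 3 pairs of a platinum-sensitive line and its platinum-resistant counterpart. The members were all genes in the deposited expression table whose symbol is that of a CDH, PCDH, FAT, DCHS, CELSR, DSC or DSG gene, a choice by name that used no measured value. The rule gave 53 of the 12853 listed genes. It matched 105 protein-coding genes of the GRCh37 annotation, and 52 of these, CDH11 and DCHS1 among them, had no row in the table and were not analysed here. The 53 members comprised 4 type I classical cadherins, 3 type II classical cadherins, CDH13, 3 desmosomal cadherins, 7 FAT and CELSR cadherins, 6 non-clustered protocadherins and 29 clustered protocadherins, of which 7 were alpha, 11 beta and 11 gamma genes.

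Cadherins are transmembrane proteins that bind calcium and join neighbouring cells through their extracellular repeats. Classical cadherins hold adherens junctions and couple to the actin skeleton through catenins, desmosomal cadherins couple to intermediate filaments through plakoglobin, plakophilins and desmoplakin, and the large FAT and CELSR cadherins act in Hippo signalling, cell shape and planar polarity. The clustered protocadherins are chosen from arrays of alternative promoters and give neurons a surface identity. In the ovary, the surface epithelium carries N-cadherin (CDH2), tubal epithelium carries E-cadherin (CDH1), and a switch from E-cadherin to N-cadherin is a familiar feature of epithelial-mesenchymal transition.

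A2780 was paired with CP70, a platinum-resistant line selected from it in culture, and the labels describe both as endometrial/ovarian. PEO1 and PEO4 came from the same high-grade serous cancer, both after platinum-based chemotherapy, PEO1 before and PEO4 after clinical platinum resistance. PEA1 and PEA2 came from the ascites of another, the earlier before any platinum was given and the later once the cancer had come back resistant. Each line had 3 libraries of rRNA-depleted total RNA made with a strand-specific kit from cells grown in RPMI-1640 with serum, with no drug named for these libraries. Whether the 3 libraries of a line came from separate cultures is not given, so the p-values measure the spread between these libraries, which may be technical. Each line is a model of 1 tumour, and A2780 and CP70 differ by drug selection in culture, whereas in the other pairs resistance arose in a patient.

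The values are log2 CPM, where CPM is the count of a gene per 1000000 reads of the scaled library size, and whole reads could be recovered from all of them. The libraries held 1344098 to 7067336 reads on listed genes, so that 3 reads correspond to 0.452 to 2.18 CPM. The 53 members took between 0.0524% and 0.425% of the reads of a library. The share was lowest in CP70, where no library exceeded 0.0529%, and highest in PEO4, where no library was below 0.396%. In such bulk samples, fewer cells with a transcript and less transcript per cell cannot be told apart. Many members stood on few reads. A member without a read in either line still receives a fitted log2 fold change (log2FC), -0.55 between A2780 and CP70 and -0.69 between PEA1 and PEA2, because 0.5 reads were added to each count before division by library sizes that differ.

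The labelled cell type was checked with 12 epithelial and serous markers, all listed. Their summed level was 3.13 to 3.64 CPM in A2780, 91.0 to 96.8 CPM in CP70, 436 to 591 CPM in PEA1, 3653 to 4071 CPM in PEA2, 7800 to 8853 CPM in PEO1 and 6330 to 8004 CPM in PEO4. PAX8, a defining factor of serous ovarian cancer, was at 0 reads in A2780 and at 2 reads over the 3 libraries of CP70, and WT1 was at 0 in both. In the PEO and PEA lines PAX8 lay between 156 and 376 CPM. The 7 listed of 9 mesenchymal markers, led by vimentin (VIM), summed to between 2629 and 3864 CPM in A2780, CP70 and PEA1 and to between 112 and 274 CPM in PEA2, PEO1 and PEO4. By the mesenchymal sum PEA1 stood with A2780 and CP70, and PEA2 with the PEO lines, whereas by the epithelial sum PEA1 lay between CP70 and PEA2. In PEA2 against PEA1, 3 of the 7 mesenchymal markers were lower and 1 higher at a false discovery rate below 0.05 in limma. Of all genes, 29.4% were lower and 32.5% higher at that threshold. The part of these differences in the results below was not tested.

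Differentially expressed (DE) genes were those with a log2FC beyond ±2 and a false discovery rate (FDR) below 0.05 in limma, adjusted over all 12853 genes. In CP70 against A2780, 23 of the 53 members were DE, 43.4% of them beside 9.06% of all genes, with 4 higher and 19 lower where 5.66% and 3.4% of all genes were. In PEA2 against PEA1, 34 were DE, 64.2% beside 14.1% of all genes, with 10 higher and 24 lower where 7.93% and 6.15% of all genes were. In PEO4 against PEO1, 7 were DE, 13.2% beside 6.22% of all genes, with 1 higher and 6 lower where 2.86% and 3.37% of all genes were, and quantile normalization gave 5 higher and 6 lower there. By FDR alone, 32, 44 and 23 members passed in these pairs, 60.4%, 83.0% and 43.4% of them, beside 39.9%, 61.9% and 41.5% of all genes, so that the PEO share was near that of all genes. Of these members, 9, 16 and 14 were higher (22.2%, 32.5% and 19.6% of all genes) and 23, 28 and 9 lower (17.7%, 29.4% and 21.9%). The 3 libraries of 1 line did not overlap those of the other for 31, 41 and 37 members, 58.5%, 77.4% and 69.8%, beside 54.1%, 60.9% and 57.5% of all genes. In the same order of the pairs, the median log2FC of the members was -0.55, -1.50 and 0.43, beside -0.02, 0.01 and -0.02 for all genes. Among members with more than 3 reads in at least 1 line of the pair, the medians were -1.50 over 44 genes, -1.74 over 49 genes and 0.36 over 52 genes. The calls that rest on no more than 10 reads in the higher line numbered 5, 3 and 0. Every listed gene reached at least 2.876 CPM in 3 libraries. A member high in 1 line alone, such as PCDHB5 in PEA1, is thus listed only through that line. The part of this in the shares of DE members was not tested. With 2 reads added to each count in place of 0.5, the counts of DE members were 13, 24 and 5 in the A2780, PEA and PEO pairs.

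**Figure D1:**
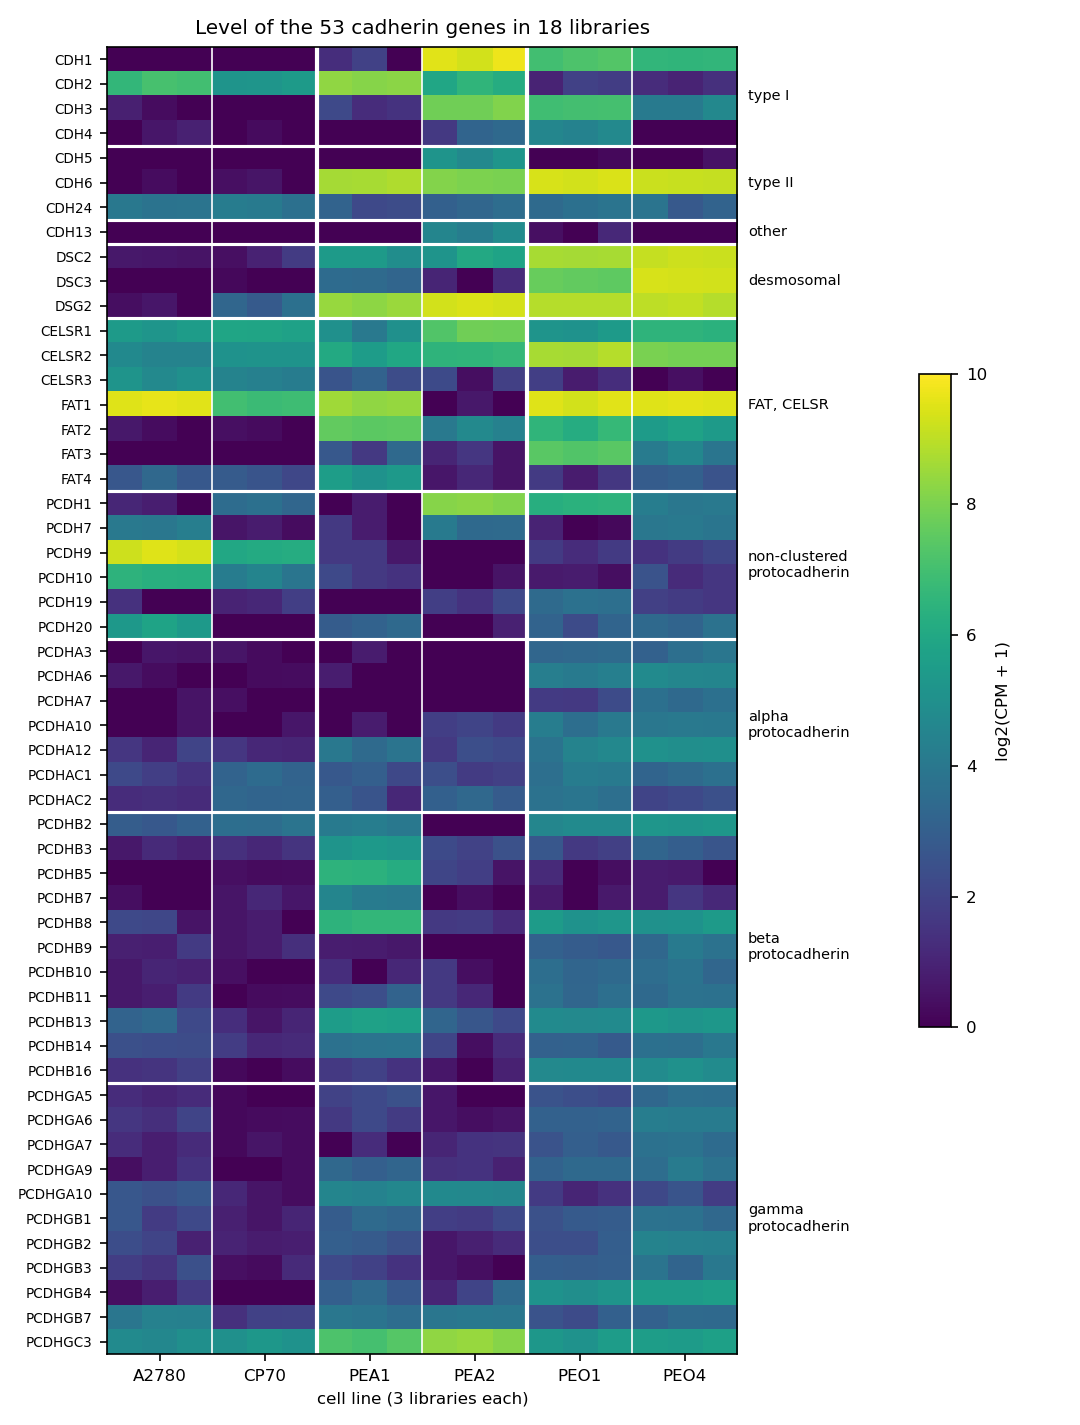
Level of the 53 members (rows, by subfamily) in the 18 libraries (columns, 3 for each line), coloured by log2(CPM + 1). Most clustered protocadherins, though not PCDHGC3, were low in A2780, CP70 and PEA2, CDH1 was bright in PEA2 and the PEO lines alone, and FAT1 was dark in PEA2 alone.

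Among the type I classical cadherins, the largest change was that of E-cadherin in the PEA pair. CDH1 (ENSG00000039068, chromosome 16, 68771195 to 68869440 on GRCh37, plus strand) encodes the cadherin of epithelial adherens junctions. It had 1.45, 2.85 and 0 CPM in PEA1 and 755, 629 and 854 CPM in PEA2, a log2FC of 9.28 ± 0.547 (SE, n = 3 libraries per line, limma FDR 1.99e-11). The libraries of PEA1 held 2, 4 and 0 reads, and those of PEA2 held 1416, 2187 and 1867, so the lines did not overlap. PEO1 had 125, 148 and 160 CPM and PEO4 94.8, 92.1 and 93.7 CPM, a log2FC of -0.62 ± 0.547 (limma FDR 0.397), with every PEO4 library below every PEO1 library. The SE is 1 value per gene shared by all lines, so it also holds the spread of lines near 0 reads. Over all fits tried, the limma FDR of CDH1 in the PEO pair ranged from 9.05e-05 to 0.56. A2780 and CP70 had 0 reads of CDH1 in all 6 libraries. A count of 0 in an A2780 library allows up to 3 reads, which is 1.34 CPM in the shallowest of them.

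N-cadherin (CDH2, ENSG00000170558, chromosome 18), which mesenchymal and neural cells use in the place of CDH1, had 327, 291 and 303 CPM in PEA1 and 59.2, 93.3 and 71.3 CPM in PEA2 (log2FC -2.06 ± 0.275, limma FDR 2.08e-06). CP70 had 35.4, 36.3 and 42.3 CPM against 97.6, 134 and 124 CPM in A2780 (log2FC -1.63 ± 0.275, limma FDR 6.62e-05), a drop under the 4-fold limit. Neither pair overlapped. CDH2 thus fell in both pairs and was still read in every library of CP70 and PEA2. The drop in the PEA pair lies near the limit of a DE call, at -1.91 without PEA2 replicate 1. In PEO1 and PEO4 it stood between 0.979 and 2.86 CPM. The lines therefore held 3 combinations: CDH2 with CDH1 at or near 0 in A2780, CP70 and PEA1, CDH1 with CDH2 near 0 in PEO1 and PEO4, and both in PEA2.

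P-cadherin (CDH3, ENSG00000062038) lies next to CDH1 on chromosome 16, from 68670092 to 68761371, and is found in basal epithelial layers. It moved with CDH1 in the PEA pair, from 3.63, 1.43 and 1.73 CPM in PEA1 to 224, 229 and 272 CPM in PEA2 (log2FC 6.63 ± 0.420, limma FDR 5.78e-11). In the PEO pair it fell from 121, 127 and 132 CPM to 15.9, 16.4 and 24.3 CPM (log2FC -2.76 ± 0.420, limma FDR 2.27e-05), whereas CDH1 was not DE there. Its call in the A2780 pair rests on 4 reads in A2780 and 0 in CP70. R-cadherin (CDH4), best known from retina and brain, had 23.2, 20.7 and 25.5 CPM in PEO1 and 0 reads in PEO4, at least 66.4-fold lower. In the PEA pair CDH4 had 0 reads in PEA1 and 2.13, 8.35 and 9.60 CPM in PEA2, at least 10.8-fold higher. CDH3 and CDH4 were thus both DE in opposite directions in the PEA and PEO pairs. CDH4 reached 2.876 CPM in 3 libraries only through PEO1, in which it was high, so its PEO call is a description only.

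**Figure D2:**
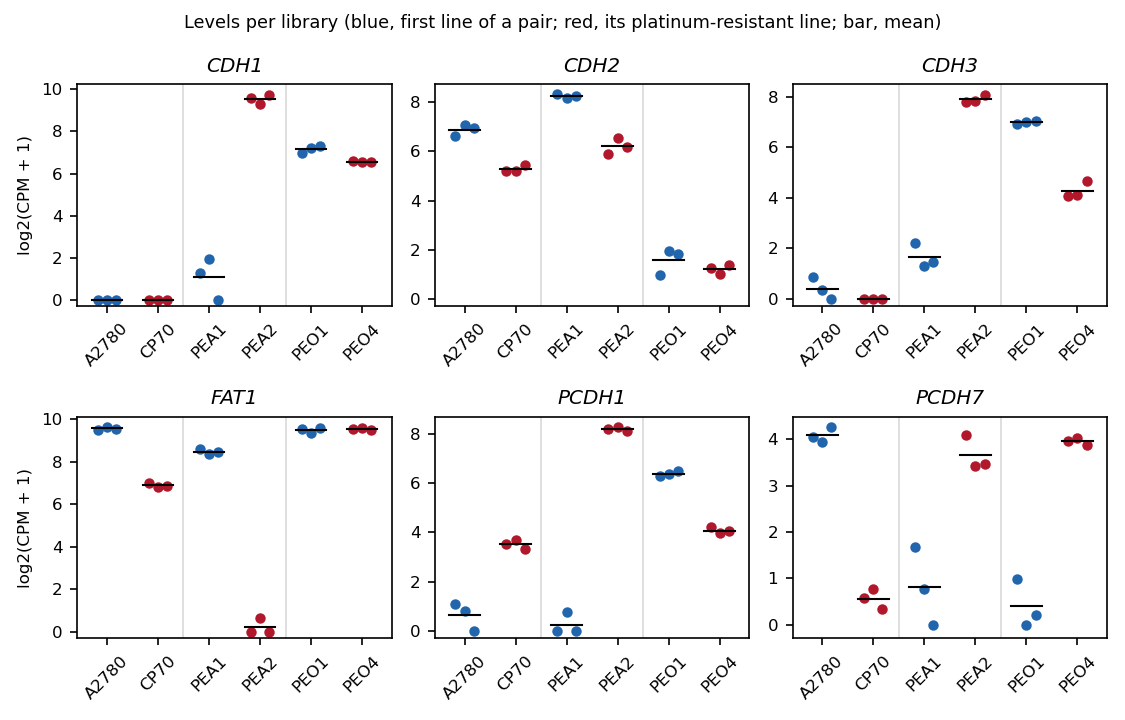
Levels of 6 members in each library, as log2(CPM + 1), with blue points for the first line of a pair, red points for its resistant line and a bar at the mean of 3 libraries. FAT1 is lost in PEA2 alone, CDH1 and CDH3 are gained there, and PCDH1 and PCDH7 change in every pair, each in 1 pair against the direction of the other two.

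Of the 69 listed genes within 2 Mb of CDH1 and CDH3, 4 were DE higher and 1 was DE lower in the PEA pair, and 27 were higher and 6 lower by FDR alone in limma. As above, 7.93% and 6.15% of all genes were DE higher and lower there, and 32.5% and 29.4% were higher and lower by FDR alone. ESRP2, a splicing factor 398 kb away, was DE higher (log2FC 3.78). ZFP90, 60.1 kb from the CDH3 side, had a log2FC of -1.49 and TANGO6, 7.99 kb from the CDH1 side, one of -0.42. These 2 genes did not rise with CDH3 and CDH1.

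The genes that act on CDH1 were taken as a list of 20 transcription factors, cofactors and splicing factors, 18 of them listed. In the PEA pair 6 were DE higher and 4 DE lower, with a median log2FC of 0.51. The shares of all genes DE higher were 5.66%, 7.93% and 2.86% in the A2780, PEA and PEO pairs. Those DE lower were 3.4%, 6.15% and 3.37%. The epithelial splicing factor ESRP1 had 0 reads in PEA1 and 352, 340 and 304 CPM in PEA2, and GRHL2, which activates CDH1, had 0 reads in PEA1 and 48.5, 51.2 and 36.6 CPM in PEA2. The CDH1 repressor ZEB1 had 97.3, 124 and 113 CPM in PEA1 and 0, 0.288 and 0 CPM in PEA2 (log2FC -8.55, limma FDR 4.44e-13), and ZEB2 changed from 13.8, 14.96 and 12.1 CPM to 0.533, 0 and 0.457 CPM (log2FC -5.02). Neither repressor had libraries that overlapped between PEA1 and PEA2. In the A2780 pair 2 of the 18 were DE higher and 3 lower: TWIST2, another repressor, rose from 0 reads to 15.1, 12.6 and 14.99 CPM, and SNAI2, the Slug repressor, fell from 35.8, 59.3 and 47.4 CPM to 1.15, 2.13 and 1.31 CPM, while CDH1 stayed at 0 reads in both lines. In the PEO pair 0 were DE higher and 2 DE lower, OVOL2 (log2FC -2.21) and SNAI2, which had 22 reads in PEO1 and 2 in PEO4.

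The list of catenins and other plaque proteins of adherens junctions had 19 genes, 17 of them listed. Of these, 2 were DE in CP70, 3 in PEA2 and 0 in PEO4, beside 9.06%, 14.1% and 6.22% of all genes. By FDR alone in limma, 6 were higher and 3 lower in CP70, 9 higher and 1 lower in PEA2, and 6 higher and 6 lower in PEO4. The shares of all genes that passed by FDR alone were 39.9%, 61.9% and 41.5%. Alpha-catenin (CTNNA1), which links the complex to actin, had log2FC of 0.56, 0.32 and 1.29 in the A2780, PEA and PEO pairs. Beta-catenin (CTNNB1), the partner that also carries Wnt signals, had -0.34, 0.66 and -0.63, and p120-catenin (CTNND1), which keeps cadherins at the surface, had 0.05, 0.54 and 0.12. In the PEA pair all 3 values were below those of CDH1 and CDH3. LIMA1, an actin-binding protein of the junction, stayed below the DE limit with log2FC of -1.65, 1.69 and -1.95. Nectin-4 (listed as PVRL4), an adhesion molecule that works beside cadherins, had 17 reads in A2780 and 0 in CP70, and 0 reads in PEA1 and 65 in PEA2. EPS8, an actin-capping protein, was DE higher in both of these pairs, with log2FC of 4.33 and 2.45. Among 11 proteases and cofactors that shed or cleave cadherins, such as ADAM10 and the gamma-secretase subunits, 0 were DE in any pair. Between 5 and 8 of them in each pair had an FDR below 0.05, beside 39.9% to 61.9% of all genes.

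The type II cadherin CDH6 (ENSG00000113361, chromosome 5), a kidney and fetal cadherin often seen in serous ovarian cancer, separated the lines rather than the pairs. It had 400, 408 and 446 CPM in PEA1, 280, 263 and 254 CPM in PEA2, between 632 and 689 CPM in PEO1 and between 549 and 580 CPM in PEO4. A2780 had 1 read and CP70 had 4 over their 3 libraries. Its log2FC was -0.65 ± 0.370 (limma FDR 0.134) in the PEA pair and -0.23 ± 0.370 (limma FDR 0.653) in the PEO pair, so it was not DE in any pair although the libraries did not overlap in these 2 pairs. These SE too are shared by all lines. Over all fits tried, the limma FDR of CDH6 ranged from 2.43e-06 to 0.233 in the PEA pair and from 0.014 to 0.756 in the PEO pair. CDH24, the other type II member with a level in every line, lay between 3.56 and 17.5 CPM.

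CDH5 and CDH13 were DE higher in PEA2 and read 9 times or fewer in each of the other lines. Every listed gene reached at least 2.876 CPM in 3 libraries, and CDH5 and CDH13 reached it in PEA2 alone. They thus have a row only through the line in which they are high, and their DE calls are a description only. VE-cadherin (CDH5), the cadherin of endothelial junctions, had 35.2, 25.3 and 36.1 CPM in PEA2, 0 reads in PEA1, A2780 and CP70, and 1 read over the 3 libraries of each PEO line. T-cadherin (CDH13), which is anchored by lipid and lacks a cytoplasmic tail, had 22.4, 17.8 and 27.0 CPM in PEA2, 0 reads in PEA1, A2780, CP70 and PEO4, and 9 reads in PEO1. PEA2 was at least 46.6-fold higher than PEA1 for CDH5 and at least 32.6-fold higher for CDH13, counted against 3 reads over PEA1. The other 3 endothelial markers of the list, PECAM1, VWF and KDR, had no row in the table. The only listed marker of 5 for leukocytes, PTPRC, moved in the same direction, with 25.1, 20.1 and 21.0 CPM in PEA2 and 0 reads in PEA1. Its part in the CDH5 result was not tested.

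The 3 desmosomal cadherins summed to 0.773 ± 0.298 CPM in A2780, 1077 ± 15.6 CPM in PEO1 and 1737 ± 44.5 CPM in PEO4 (SD, n = 3). Desmoglein-2 (DSG2, ENSG00000046604), the desmoglein of simple epithelia, had 0.280, 0.516 and 0 CPM in A2780 and 8.85, 6.16 and 11.8 CPM in CP70, which is 3 reads against 125 and a ratio of 28.6 (exact 95% counting interval 9.56 to 140). It was the 1 desmosomal cadherin that was DE in that pair. In PEA1 it had 347, 311 and 358 CPM and in PEA2 634, 699 and 656 CPM (log2FC 0.97 ± 0.252, limma FDR 0.00244). Desmocollin-3 (DSC3), found in stratified epithelia, moved in opposite directions in the 2 patient pairs: it fell from 10.2, 9.97 and 8.63 CPM in PEA1 to 1.07, 0 and 1.37 CPM in PEA2 (log2FC -3.87 ± 0.593, limma FDR 1.16e-05), and had 204, 190 and 180 CPM in PEO1 and 664, 645 and 640 CPM in PEO4 (log2FC 1.76 ± 0.593, limma FDR 0.0218). Per kilobase of exon, DSC3 was the highest member in PEO4, at 84.4 CPM per kb. DSC2, another desmocollin, was not DE in any pair, at 403 to 414 CPM in PEO1 and 561 to 596 CPM in PEO4.

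The cytoplasmic plaque of the desmosome was read beside its cadherins. Of 9 listed plaque genes, 4 were DE higher in CP70, 6 were DE higher in PEA2, and 1 was DE lower in PEO4. The shares of all genes were 5.66% higher in CP70, 7.93% higher in PEA2 and 3.37% lower in PEO4. Desmoplakin (DSP), which ties the plaque to keratins, had 1 read in A2780 and 37.2, 40.3 and 39.7 CPM in CP70, and rose from 64.6, 67.7 and 61.0 CPM in PEA1 to 741, 547 and 647 CPM in PEA2. PERP, a desmosomal membrane protein, had 7 reads in A2780 and 482 in CP70 (log2FC 5.38), and a log2FC of 3.28 in the PEA pair. Plakophilin-3 (PKP3) had log2FC of 3.03 and 5.62 in these pairs, and plakoglobin (JUP), which serves both junction types, 0.91 and 3.36. The gene that fell in the PEO pair was PKP1, from 25.5, 22.2 and 21.7 CPM to 1.04, 3.003 and 3.25 CPM. The epithelial marker list moved with these genes. Beside the same shares of all genes, 3 of its 12 members were DE higher in CP70 and 10 in PEA2, and 1 was DE lower in PEO4.

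FAT1 (ENSG00000083857, chromosome 4, 187508948 to 187647876 on GRCh37, minus strand) encodes a giant cadherin that restrains Hippo targets and Wnt signalling and is often mutated in carcinomas. It was the highest member per kilobase of exon in A2780, at 46.5 CPM per kb, and in CP70, at 7.28 CPM per kb. PEA1 had 385, 322 and 345 CPM, which is 530, 452 and 599 reads, and PEA2 had 0, 2 and 0 reads. The log2FC was -9.95 ± 0.252 (limma FDR 8.03e-17), and the ratio of summed levels was 1318 with an exact 95% counting interval of 364 to 10895. FAT1 also fell in CP70, from 725, 788 and 740 CPM to 126, 110 and 116 CPM (log2FC -2.67 ± 0.252, limma FDR 3.10e-08). The libraries of PEO1, at 736, 642 and 759 CPM, and of PEO4, at 731, 772 and 721 CPM, overlapped (log2FC 0.06 ± 0.252, limma FDR 0.874). The loss in PEA2 and the drop in CP70 thus had no counterpart in the PEO pair, and the difference between the pairs was itself beyond the spread (limma FDR 2.47e-14 for the interaction).

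The other FAT genes fell in the PEA pair as well. FAT2 went from 192, 177 and 182 CPM in PEA1 to 15.5, 25.3 and 20.1 CPM in PEA2 (log2FC -3.19 ± 0.389, limma FDR 6.43e-07). FAT4, the cadherin of the Dachsous-Fat polarity system, went from 45.8, 33.5 and 40.8 CPM to 0.533, 1.15 and 0.457 CPM (log2FC -5.49 ± 0.389, limma FDR 2.98e-10). FAT3, known from retina and muscle, had 28 reads in PEA1 and 10 in PEA2 (log2FC -2.10 ± 0.481, limma FDR 0.000835, and -1.65 without PEA1 replicate 3). All 4 FAT genes were thus DE lower in PEA2, each without overlap. In the PEO pair FAT3 fell from 171, 157 and 175 CPM to 17.0, 24.02 and 13.8 CPM (log2FC -3.22 ± 0.481, limma FDR 1.81e-05) and FAT4 had a log2FC of 1.92 ± 0.389 (limma FDR 0.000492), from 0.715 to 2.29 CPM in PEO1 and 4.87 to 7.34 CPM in PEO4. FAT2 and FAT3 were at or under 3 reads in both A2780 and CP70.

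The CELSR genes are cadherins of planar polarity. CELSR1 rose in the PEA pair, from 31.2, 15.7 and 31.1 CPM to 153, 225 and 224 CPM (log2FC 2.98 ± 0.202, limma FDR 1.57e-10), and stood at 34.9, 33.6 and 42.8 CPM in PEO1 and 90.3, 90.1 and 83.2 CPM in PEO4 (log2FC 1.25 ± 0.202). CELSR2 was not DE in any pair, though its log2FC of 0.56, 0.71 and -0.80 each had an FDR below 0.05 in limma. CELSR3 had 5.08, 7.84 and 4.03 CPM in PEA1 and 3.73, 0.288 and 2.74 CPM in PEA2 (log2FC -1.74, limma FDR 0.0208), without overlap. It was DE lower in the PEO pair, with 20 reads in PEO1 and 1 in PEO4, a ratio of 13.4 (exact 95% counting interval 2.14 to 554).

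The chromosomal surroundings of FAT1 were read in the same way. The table listed 14 genes within 2 Mb, and in the PEA pair 2 of them were DE lower, TLR3 (log2FC -5.15) and SORBS2 (log2FC -2.10), and 0 DE higher. Of all genes, 6.15% were DE lower and 7.93% DE higher there. The 4 listed genes closest on the low-coordinate side, CYP4V2, FAM149A, TLR3 and SORBS2 at 374 to 631 kb, had log2FC between -5.15 and -1.34, each with an FDR below 0.05 in limma. Beyond 1 Mb on that side, the 8 listed genes had log2FC between -0.96 (CENPU, limma FDR 4.16e-05) and 0.82 (ACSL1, limma FDR 2.98e-05), and UFSP2, the nearest of them, -0.09. On the other side the nearest listed genes were ZFP42 and TRIML2, at 1269 and 1365 kb, with log2FC of 1.05 and 0.08. In CP70, where FAT1 also fell, CYP4V2, TLR3 and FAM149A were higher (log2FC 2.00, 1.89 and 1.79, each with limma FDR below 0.05). SORBS2 had 0.61 there (limma FDR 0.416). By FDR alone, 9 of the 14 were higher and 2 lower in CP70, beside 22.2% and 17.7% of all genes. The part of the surroundings in the FAT1 changes was not tested.

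**Figure D3:**
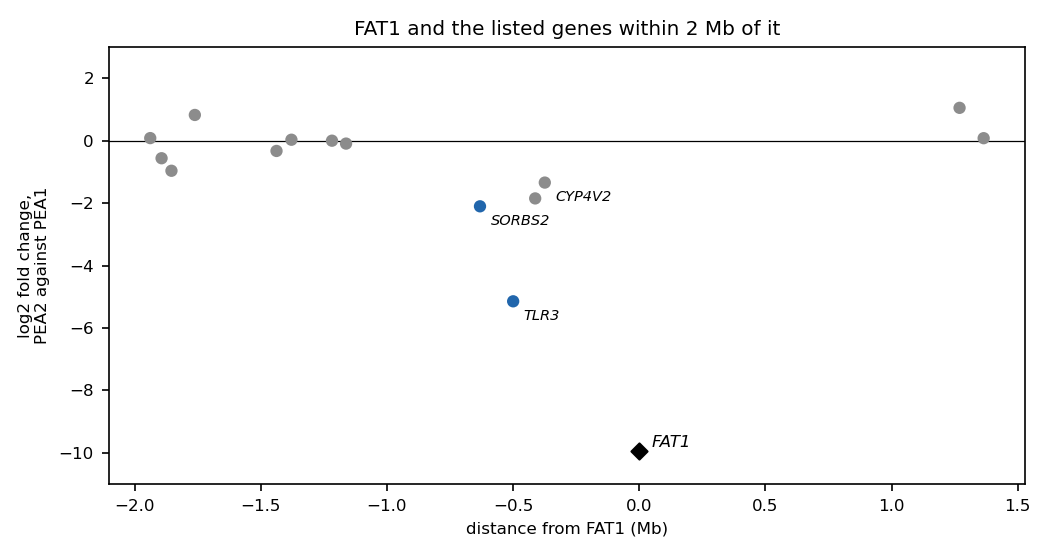
Log2 fold change of PEA2 against PEA1 (vertical axis) for FAT1 (diamond, at 0) and the 14 listed genes within 2 Mb, by their distance from FAT1 in Mb (horizontal axis). Blue points are DE lower and grey points are not DE, and the 4 points nearest to FAT1 lie below those farther out.

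Hippo pathway genes and planar polarity genes were set beside the FAT and CELSR cadherins. Of 20 listed Hippo genes, 0 were DE between A2780 and CP70, and 1 was DE in each patient pair. By FDR alone in limma, 3 were higher and 4 lower in CP70, 9 higher and 5 lower in PEA2, and 4 higher and 8 lower in PEO4. Among all genes, 9.06%, 14.1% and 6.22% were DE in the A2780, PEA and PEO pairs. By FDR alone, 39.9%, 61.9% and 41.5% of all genes passed. The scaffold SAV1 rose from 34.9, 29.9 and 36.2 CPM in PEA1 to 283, 225 and 266 CPM in PEA2 (log2FC 2.92), and TEAD2, a transcription factor of the pathway, had 48 reads in PEO1 and 2 in PEO4. The coactivators YAP1 and WWTR1 had log2FC of -0.19 and -1.62 in the PEA pair. Of 13 planar polarity genes, 4 were DE in the PEA pair, where 14.1% of all genes were. The receptor PTK7 was lower (log2FC -3.28), as were PRICKLE1 and PRICKLE2, and FZD3 was higher (log2FC 2.20). In the A2780 pair PRICKLE1 moved the other way, from 3 reads in A2780 to 104 in CP70 (log2FC 4.55), and VANGL2 and FUZ were DE lower.

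All 6 non-clustered protocadherins were DE in both the A2780 pair and the PEA pair, 2 higher and 4 lower in the A2780 pair and 3 higher and 3 lower in the PEA pair, and 3 were DE in the PEO pair. PCDH1, a protocadherin of airway and skin epithelium, rose from 0, 1 and 0 reads in PEA1 to 292, 309 and 275 CPM in PEA2, a ratio of 1332 (exact 95% counting interval 239 to 52650). It also rose from 1.12, 0.774 and 0 CPM in A2780 to 10.6, 12.1 and 8.94 CPM in CP70 (log2FC 4.06 ± 0.482, limma FDR 8.16e-07). In the PEO pair it fell, from 76.7, 82.3 and 88.3 CPM to 17.6, 14.7 and 15.4 CPM (log2FC -2.36 ± 0.482, limma FDR 0.000513). The lines of each pair stood apart without overlap.

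PCDH7, a protocadherin of heart and brain, showed another order. It fell in CP70, from 15.7, 14.4 and 18.3 CPM to 0.491, 0.711 and 0.263 CPM (log2FC -4.83 ± 0.654, limma FDR 4.76e-06). It rose from 4 reads in PEA1 to 16.002, 9.79 and 10.1 CPM in PEA2 (log2FC 3.68 ± 0.654, limma FDR 6.48e-05) and from 4 reads in PEO1 to 14.5, 15.3 and 13.8 CPM in PEO4 (log2FC 5.36 ± 0.654, limma FDR 1.57e-06). It was the 1 member DE higher in PEO4, where 1 to 4 members were DE higher with a library left out and 2 with voom weights.

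The remaining non-clustered protocadherins, mostly known from brain, had their highest level in A2780, apart from PCDH19, which was highest in PEO1 at 11.3 CPM on average. PCDH9 had 603, 738 and 647 CPM in A2780 and 62.6, 69.0 and 71.5 CPM in CP70 (log2FC -3.29 ± 0.376, limma FDR 5.10e-07), and no library of the other 4 lines exceeded 3.25 CPM. PCDH20 had 39.2, 55.2 and 42.0 CPM in A2780 and 0 reads in CP70, at least 218-fold lower, and 37 reads in PEA1 against 2 in PEA2, a ratio of 30.9 (exact 95% counting interval 7.96 to 264). PCDH10 had 86.5, 78.2 and 75.5 CPM in A2780 and 17.4, 21.6 and 13.7 CPM in CP70 (log2FC -2.21 ± 0.520, limma FDR 0.00189). These 3 genes fell in both pairs, but the PEA call of PCDH9 rests on 7 reads against 0 and that of PCDH10 on 11 against 1. PCDH19 was DE in every pair, higher in CP70 and PEA2 and lower in PEO4, on 6 reads against 21, 0 against 19 and 142 against 20. All 6 of those A2780 reads came from 1 library, and the A2780 call was lost without A2780 replicate 2 (limma FDR 0.121), without A2780 replicate 3 (0.0817) or without CP70 replicate 3 (0.0891). PCDH19 has a row only through PEO1, in which it was high, so its PEO call is a description only.

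The clustered protocadherins lie in 3 arrays in tandem on chromosome 5, with the alpha exons from 140180613, the beta genes between 140474191 and 140607331, and the gamma genes ending at 140892544 on GRCh37. Each beta gene is a single exon of its own, whereas the alpha genes share their last exons with each other, as do the gamma genes. How reads on shared exons were assigned is not given in the sources used here, and the genes are close paralogs, so the values of single alpha and gamma genes are uncertain. Each gene has its own promoter, and these promoters are known to share a short conserved element. The windows below show a shared word for members whose values are given next. In each array, the 9-letter word held by the largest number of the listed genes' promoters was sought in the 250 bases before the start, in the RefSeq promoter sequences of GRCh38.p14, which held 40 of the 53 members. Capitals mark that word, all windows read on the plus strand, and bases are counted back from the start.
PCDHB2, chr5:141094530-141094588: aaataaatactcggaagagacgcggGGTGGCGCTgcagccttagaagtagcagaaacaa
PCDHB7, chr5:141172552-141172610: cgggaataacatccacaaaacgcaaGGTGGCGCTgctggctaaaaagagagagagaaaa
PCDHB10, chr5:141192285-141192343: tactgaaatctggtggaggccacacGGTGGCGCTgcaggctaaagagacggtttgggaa
PCDHB13, chr5:141213851-141213909: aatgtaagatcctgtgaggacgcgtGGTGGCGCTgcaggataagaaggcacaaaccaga
PCDHB16, chr5:141182296-141182354: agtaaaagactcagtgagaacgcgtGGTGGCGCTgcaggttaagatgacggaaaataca
PCDHA10, chr5:140855827-140855885: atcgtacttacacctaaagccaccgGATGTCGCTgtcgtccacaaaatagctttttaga
PCDHA12, chr5:140875230-140875288: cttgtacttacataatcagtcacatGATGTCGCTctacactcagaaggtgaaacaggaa
PCDHGA9, chr5:141402702-141402760: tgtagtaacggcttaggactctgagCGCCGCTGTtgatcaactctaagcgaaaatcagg
PCDHGA10, chr5:141412919-141412977: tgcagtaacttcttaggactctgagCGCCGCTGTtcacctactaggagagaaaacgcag
PCDHGB4, chr5:141387605-141387663: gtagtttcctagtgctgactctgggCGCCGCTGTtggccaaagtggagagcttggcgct
The word GGTGGCGCT stood in 9 of 10 beta promoters, beginning 16 to 76 bases before the start, and in 0.41% of 35116 promoters on either strand. GATGTCGCT stood in 4 of 6 alpha promoters and 0.0854% of all, and CGCCGCTGT in 5 of 11 gamma promoters and 0.467% of all. In the gamma array 2 words were held equally often, and the one rarer among all promoters is shown. The words were found from these sequences, and their presence is a description only. The beta promoter without the word was that of PCDHB8.

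The beta protocadherins fell together in the PEA pair. Their summed level was 319 ± 11.6 CPM in PEA1 and 17.7 ± 6.97 CPM in PEA2 (SD, n = 3), 17.98-fold lower without overlap. Of 11 genes, 10 were DE lower and 0 higher, with a median log2FC of -3.29. PCDHB5 and PCDHB7, at 81.1 and 18.4 CPM on average in PEA1, have a row only through that line. Their part in the sum and their calls are thus a description only. The call of PCDHB9 rests on 1 read in each PEA1 library and that of PCDHB16 on 10 reads in all, so that 8 genes were DE on more than 10 reads. PCDHB8, the most abundant in PEA1, fell from 87.2, 98.3 and 97.2 CPM to 2.13, 2.30 and 1.37 CPM (log2FC -5.48 ± 0.576, limma FDR 8.45e-08). PCDHB2 fell from 15.98, 17.8 and 14.96 CPM to 0 reads in all 3 libraries, at least 40.6-fold, and PCDHB7 from 22.5, 17.1 and 15.5 CPM to 1 read. PCDHB13 kept 8.53, 5.47 and 3.66 CPM in PEA2 of 45.03, 52.0 and 49.5 CPM in PEA1 (log2FC -3.09 ± 0.361, limma FDR 3.67e-07). The 1 gene that was not DE, PCDHB10, had 4 reads in PEA1 and 5 in PEA2.

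In the A2780 pair 5 beta genes were DE lower and 0 higher. The first 4 listed genes along the chromosome, PCDHB2, PCDHB3, PCDHB5 and PCDHB7, had log2FC of 0.82, 0.67, 1.28 and 1.78, and the other 7 had log2FC between -3.27 and -0.47. PCDHB3 (limma FDR 0.169), PCDHB5 (0.159) and, among the other 7, PCDHB9 (0.442) did not pass the FDR threshold. PCDHB5 rests on 0 reads against 4 and PCDHB7 on 1 against 10. PCDHB2 had 6.71, 5.68 and 7.60 CPM in A2780 and 11.3, 10.9 and 13.4 CPM in CP70, without overlap (limma FDR 0.0154). Among those DE lower, PCDHB13 had 8.11, 9.55 and 3.58 CPM in A2780 and 1.47, 0.474 and 1.05 CPM in CP70 (log2FC -2.71 ± 0.361, limma FDR 3.89e-06), and PCDHB16 had 19 reads against 2, a ratio of 13.9 (exact 95% counting interval 3.34 to 123). The calls of PCDHB10 and PCDHB11 rest on 8 and 10 reads in A2780, and that of PCDHB11 was lost without A2780 replicate 3 (limma FDR 0.0732) or CP70 replicate 1 (0.0869). The summed level changed from 26.8 ± 1.97 CPM to 18.8 ± 1.86 CPM. In the PEO pair 0 beta genes were DE and 2 were higher by FDR alone, with sums of 154.5 ± 10.7 CPM in PEO1 and 196 ± 7.88 CPM in PEO4.

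The gamma protocadherins fell together in CP70. Of 11 genes, 8 were DE lower and 0 higher, and 2 more were lower by FDR alone, with a median log2FC of -2.55. The 10 genes other than PCDHGC3 summed to 39.5 ± 4.08 CPM in A2780 and 5.99 ± 0.965 CPM in CP70, 6.61-fold lower. PCDHGB7, the most abundant of these, fell from 14.3, 20.1 and 19.7 CPM to 1.64, 2.84 and 2.89 CPM (log2FC -2.85, limma FDR 7.03e-08), and PCDHGA10 from 5.60, 4.64 and 5.81 CPM to 1.15, 0.474 and 0.263 CPM (log2FC -3.06, limma FDR 1.45e-06). PCDHGB4 went from 9 reads to 0, PCDHGA5 from 12 to 1 and PCDHGA9 from 8 to 1. Of the 8 calls, 6 rest on more than 10 reads. With 2 reads added, PCDHGA5 (-1.93), PCDHGA9 (-1.52), PCDHGB3 (-1.83) and PCDHGB4 (-1.79) were below the DE limit, as were PCDHGA9 without A2780 replicate 3 (-1.98) and PCDHGB3 without A2780 replicate 3 (-1.93) or CP70 replicate 2 (-1.91). In PEA2, 5 of 11 were DE lower, PCDHGA5 and PCDHGB3 with 17 and 12 reads in PEA1 among them. PCDHGA10, by contrast, had 22.5, 20.7 and 23.6 CPM in PEA1 and 25.6, 24.8 and 23.3 CPM in PEA2, and PCDHGB7 between 10.9 and 15.3 CPM in both. In the PEO pair 0 were DE, but 6 of 11 were higher by FDR alone, and the sum without PCDHGC3 was 84.5 ± 6.02 CPM in PEO1 and 155 ± 2.67 CPM in PEO4.

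PCDHGC3, the last listed gene of the array and one that many cell types express, did not follow its neighbours. It had 26.3, 23.99 and 30.4 CPM in A2780 and 31.3, 38.6 and 33.4 CPM in CP70 (log2FC 0.35 ± 0.131, limma FDR 0.0378), and 147, 130 and 162 CPM in PEA1 and 327, 348 and 290 CPM in PEA2 (log2FC 1.13 ± 0.131, limma FDR 3.31e-07). Neither pair overlapped, and both differences were below the DE limit. It made up 85.2% of the summed gamma CPM in CP70 and 86.1% in PEA2, against 40.5% in A2780 and 66.1% in PEA1.

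The alpha protocadherins were low outside the PEO lines. They summed to 92.0 ± 7.56 CPM in PEO1 and 106 ± 3.80 CPM in PEO4, against 7.03 to 23.5 CPM on average in the other 4 lines. PCDHA3, PCDHA6, PCDHA7 and PCDHA10 reached 2.876 CPM in 3 libraries only through the PEO lines. These genes thus have a row only through lines in which they are high, and the contrast is a description only. PCDHA10 had 1 read in PEA1 and 2.67, 3.17 and 2.29 CPM in PEA2 (log2FC 2.59, limma FDR 0.00292), and was the 1 alpha gene DE higher there. PCDHA12, the highest of the alpha genes that were not DE in any pair, had 15.3, 9.97 and 13.2 CPM in PEA1 and 2.13, 4.32 and 3.66 CPM in PEA2 (log2FC -1.90, limma FDR 0.000191). In CP70 the sum was 19.6 ± 0.811 CPM, 2.79-fold that of A2780, through the last genes of the array: PCDHAC2 rose from 1.40, 1.55 and 1.34 CPM to 9.01, 8.30 and 8.68 CPM (log2FC 2.46 ± 0.423, limma FDR 8.36e-05), and PCDHAC1 went from 3.64, 2.58 and 1.79 CPM to 8.19, 10.2 and 8.15 CPM (log2FC 1.70). The C-type genes PCDHAC1, PCDHAC2 and PCDHGC3, which are not chosen at random as the other isoforms are, were thus higher in CP70 by FDR while the gamma genes of types A and B were lower.

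**Figure D4:**
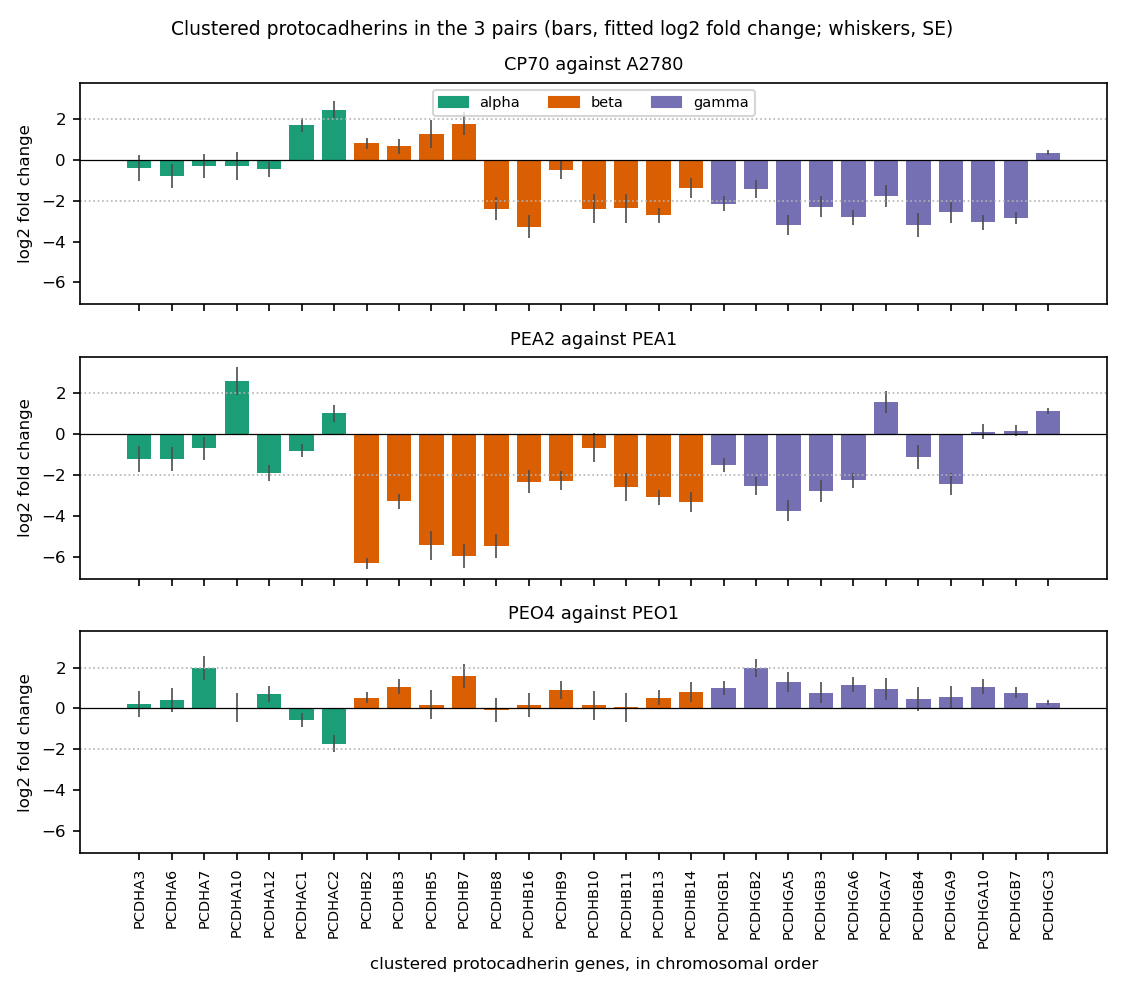
Fitted log2 fold change (bars) with its SE (whiskers) for the 29 clustered protocadherins in chromosomal order, in green for alpha, orange for beta and purple for gamma, with dotted lines at ±2. In CP70 the bars lie below 0 from within the beta array up to PCDHGC3, in PEA2 the lowest bars are in the beta array, and in PEO4 most bars lie above 0.

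Proteins that fold and silence these arrays were read beside them. Of 14 listed regulators, 0 were DE in any pair by limma, and 10, 10 and 3 had an FDR below 0.05 in the A2780, PEA and PEO pairs. Of all genes, 39.9%, 61.9% and 41.5% did. CTCF, which binds the promoters and loops them to enhancers, had log2FC of -0.29, -0.17 and -0.00 in the A2780, PEA and PEO pairs. SMCHD1, which silences the arrays, had 0.32, -0.96 and 0.04, with a limma FDR of 9.65e-07 in the PEA pair. The part of these regulators in the levels of the arrays was not tested. Of the 35 other listed genes within 2 Mb of the arrays, 3 were DE higher and 0 lower in the A2780 pair, beside 5.66% and 3.4% of all genes. In the PEA pair 2 were DE higher and 1 lower, beside 7.93% and 6.15% of all genes. Their median log2FC were -0.06 and 0.18 in the A2780 and PEA pairs. TAF7, which lies inside the array, had log2FC of -0.24 and -0.27 in these pairs.

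Across the pairs, 42 members were DE in at least 1, 18 in at least 2 and 4 in all 3, beside 22.9%, 5.8% and 0.7% of all genes. No member was DE in 1 direction in all 3 pairs, as 0.132% of all genes were (17 genes, limma). At an unadjusted p below 0.05 in limma and any size of change, 1 member moved 1 way in all 3 pairs, beside 3.87% of all genes. It was PCDHGC3, which was chosen here after its values were seen. The 4 members DE in every pair were CDH3, PCDH1, PCDH7 and PCDH19, each with 1 pair against the other two. The log2FC differed between the pairs for 47 of the 53 members (interaction FDR below 0.05 in limma), a share of 88.7% beside 75.3% of all genes. DSC2 was among those for which it was not shown to differ (limma FDR 0.941), with log2FC of 0.62, 0.41 and 0.50. Beside 0.654% of all genes, 12 members were DE lower in both CP70 and PEA2: FAT1, PCDH9, PCDH10, PCDH20, 4 beta genes and 4 gamma genes.

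**Figure D5:**
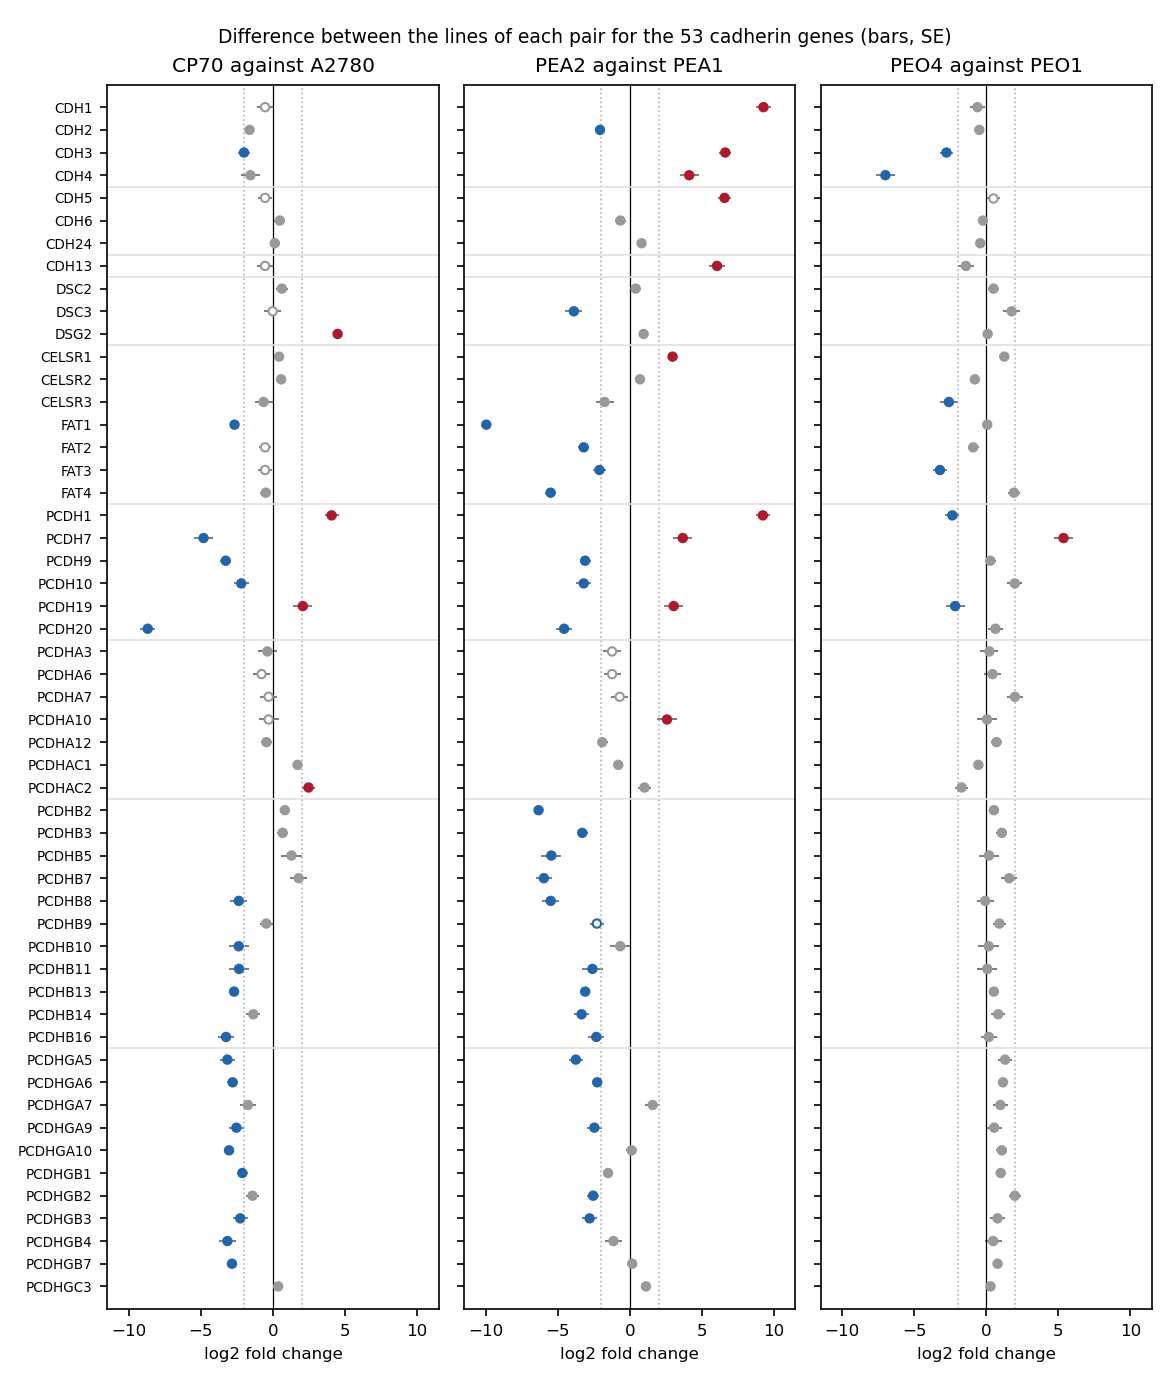
Fitted log2 fold change (points) with its SE (bars) for the 53 members in the 3 pairs, ordered by subfamily, with red for DE higher, blue for DE lower, grey for not DE and open points where both lines held at most 3 reads. Blue points outnumber red ones in CP70 and PEA2, and the PEO pair has 7 coloured points.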

How the data were processed

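Reads were aligned with Bowtie2 per the submitters' notes, assigned to all known hg19 genes with featureCounts and normalized with limma, and the authors deposited log2 CPM values of 12853 genes in 18 libraries, with 0.5 reads added and a scaled library size per library. Whole reads (tolerance 0.02) were recovered from 100% of the values. They gave depths, floors of 3 reads and exact counting intervals, which cover counting error only.

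The deposited log2 values were tested in limma 3.58.1 (R 4.3.3), with the 18 libraries fitted together, 1 mean per line and a variance trend, and adjusted by Benjamini-Hochberg over 12853 genes. The fit was tested on simulated data. The interaction compared the 3 pairs. A fold against a line at 0 reads is a lower bound computed against 3 reads over the line. CPM per kilobase used merged exon length in GRCh37 (GENCODE), which matched 52 of 53 members. Libraries were grouped by the line in their titles. Same-numbered libraries did not deviate together (correlations -0.184 to 0.220), so they were not treated as paired. The members, gene lists and tests were chosen with earlier results of these data known. The genes named were FAT1, CDH1, CDH2, CDH3 and CDH6, members DE in at least 2 pairs, the 8 largest DE changes of each pair and the highest member never DE in each subfamily, and 6 partner genes per pair with CTNNA1, CTNNB1, CTNND1, JUP, CTCF and SMCHD1. Other members were named after their values were seen. Alternatives were each pair alone, a filter at mean log2 above 0, quantile normalization, a replicate block, no trend, voom weights, 2 reads added, a limit of 1, and leaving out each library. Two-sided p-values are given throughout.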

Additional observations from a re-analysis of the deposited data

Results flagged for a closer look

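Of the 32 named members, 27 had a change between the lines that differed between 2 pairs by a test of the difference itself (limma, Benjamini-Hochberg FDR below 0.05). Most of them were named for large or repeated changes, so this count is a description and not support. For each, the largest such difference of log2FC between 2 pairs is given, leaving out pairs in which both lines were at the floor of 3 reads.

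As the PEO pair minus the PEA pair, the differences were -9.90 for CDH1, -7.48 for CDH13, 1.57 for CDH2, -9.40 for CDH3 and -11.14 for CDH4 among the CDH genes. They were -1.51 for CELSR2 and 10.02 for FAT1. Among non-clustered protocadherins they were -11.61 for PCDH1, 5.17 for PCDH10 and -5.22 for PCDH19. Among clustered ones they were 2.61 for PCDHA12, 2.65 for PCDHB11, 3.61 for PCDHB13, 5.41 for PCDHB8, 5.04 for PCDHGA5, 3.56 for PCDHGB3 and -0.84 for PCDHGC3.

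As the PEO pair minus the A2780 pair, they were -4.39 for DSG2, 9.34 for PCDH20, 10.18 for PCDH7, 3.56 for PCDH9, 3.44 for PCDHB16, 3.96 for PCDHGA6, 3.09 for PCDHGA9 and 3.65 for PCDHGB4. As the PEA pair minus the A2780 pair, they were -7.14 for PCDHB2 and -7.74 for PCDHB7.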

How the results depend on the processing

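The named members gave 91 log2FC results and 1174 values under alternatives. Of these, 1088 kept their direction and their side of the FDR threshold, 46 no longer passed it, 32 newly passed it and 8 changed sign, none of them below an FDR of 0.05. CDH6 in the A2780 pair was at -0.082 with 2 reads added. DSC2 in that pair was at -0.027 with quantile normalization and at -0.022 (without CP70 replicate 3) to 1.28 with a library left out. With a library left out in the PEO pair, FAT1 ranged from -0.012 to 0.11, PCDHB11 from -0.079 to 0.18 and PCDHB8 from -0.19 to 0.037.

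The counts of DE members were 23, 34 and 7 in the A2780, PEA and PEO pairs, and ranged from 20 to 23, 33 to 36 and 7 to 10 when each library was left out. With 2 reads added the counts were 13, 24 and 5, and the PEO count was 11 with quantile normalization and 20 at a limit of 1 on log2FC. Partner counts were 14, 24 and 4, ranged from 13 to 14, 22 to 24 and 4 to 5 with libraries left out, were 25, 44 and 18 at a limit of 1, and 7 in the PEO pair with quantile normalization. The count of members that differed between pairs, 47, ranged from 42 to 48. Same-numbered libraries were not treated as paired, and the replicate block gave counts of 23, 34 and 7 members, 14, 24 and 4 partners and 47 members that differed.

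Of 49 named DE calls, 18 ended with 2 reads added, 3 with quantile normalization, 1 with the pair fitted alone, 0 with the block and 11 with a library left out. Beside PCDH19 and PCDHB11 in the A2780 pair, the log2FC fell short of 2 in size, at -1.44 for CDH3 without A2780 replicate 1 and -1.81 without CP70 replicate 1, -1.94 for PCDHB8 without A2780 replicate 1 and -1.58 without CP70 replicate 3, -1.98 for PCDHGA9 without A2780 replicate 3, and -1.93 and -1.91 for PCDHGB3 without A2780 replicate 3 or CP70 replicate 2. In the PEA pair they were -1.91 for CDH2, -1.998, -1.65 and -1.66 for FAT3 without PEA1 replicate 1, PEA1 replicate 3 or PEA2 replicate 3, -1.61 for PCDHB11 without PEA2 replicate 3, and -1.41 for PCDHB16 and -1.996 for PCDHGA6 without PEA2 replicate 2. The cause was not tested. At these depths a level under 3 reads in a library cannot be told from 0.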
